A study of Homo sapiens with 4 samples.

Results

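The nuclear genes for subunits of the mitochondrial respiratory chain and ATP synthase were followed in cells of the established human glioblastoma line LN-229 after WIF1 was switched on. WIF1 is a secreted protein that binds WNT ligands. Members were all probe sets with a single gene symbol of the NDUFA, NDUFB, NDUFC, NDUFS or NDUFV series (complex I), SDHA to SDHD (complex II), UQCR (complex III), COX4 to COX8 (complex IV) or ATP5F1, ATP5M and ATP5P (complex V). The rule found 147 of 54613 probe sets, for 75 of 19775 genes. They were 32 genes of complex I, 3 of complex II, 6 of complex III, 16 of complex IV and 18 of complex V, among them the pseudogene ATP5MC2P1. Another 10 probe sets that carry a matching symbol beside other symbols were left out.

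The induced group was 2 cultures of LN-229 given doxycycline (written Doxocyclin in the labels) for 48 h to express WIF1, and the control group was 2 cultures of the same line without treatment. Each culture was read on 1 Affymetrix array, and the labels call the replicates biological. No array had doxycycline without WIF1, so the drug and the protein cannot be told apart, and the promoter and clone behind the induction are not given in the sources used here. The values are log2 intensities per probe set, with array medians of 6.15 and 6.15 in induced cells and 6.16 and 6.19 in controls. The single WIF1 probe set lay near the floor, at 2.93 and 3.03 in induced cells and 2.98 and 2.90 in controls, a difference of 0.04 (SE 0.10, limma adjusted p = 0.911). The arrays thus did not show the induction, and whether this probe set reads the introduced WIF1 was not tested. Of 8 glioma and astrocyte lineage markers, 7 lay at or above the median probe set (6.16). The exception was GFAP, the astrocyte filament protein, at 5.66. Of markers of other cells, 0 of 3 epithelial, 2 of 3 endothelial, 1 of 3 leukocyte and 3 of 3 neuronal ones lay at or above that level, and their part in the results was not tested.

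Complexes I to IV of the inner mitochondrial membrane pass electrons from NADH and succinate to oxygen, and complexes I, III and IV pump protons as they do so. Complex V, the ATP synthase, lets the protons flow back and makes ATP. Complexes I, III, IV and V are built from subunits of the nuclear and the mitochondrial genome, while complex II is wholly nuclear encoded. Several subunits of complex IV exist as tissue isoforms, with separate genes for heart and muscle or for testis.

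The 75 genes differed little between the groups. With 1 probe set per gene, the one of highest mean, 62 genes lay within 0.1 log2 units of no difference. The whole range ran from -0.12 for SDHA, the flavoprotein of complex II, to 0.37 for NDUFA5, an accessory subunit of complex I. limma called 0 of 147 member probe sets and 0 of 75 member genes at an adjusted p under 0.05, as it did for all features (0%), and the smallest adjusted p of a member was 0.472. At an unadjusted p under 0.05, 10 member genes were higher in induced cells and 1 was lower, or 13.3% and 1.33% of members. Over all genes these shares were 6.48% and 4.73%. The member counts moved with the scaling of the arrays, to 12 higher and 0 lower after centring each array on its median and to 6 higher and 5 lower after cyclic loess. Without the intensity trend in the variance model they were 2 higher and 0 lower. They were 3 higher and 0 lower without the second induced array and 3 higher and 1 lower without the second control. The counts over all 19775 genes, 1281 higher and 936 lower as reported, moved as well. They were 1665 and 551 after centring, 1397 and 940 after cyclic loess and 865 and 668 without the trend. Without the second induced array they were 564 and 451, and without the second control 477 and 304.

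Groups did not overlap in 29 genes with both induced arrays above both controls (38.7%) and in 15 genes the other way (20.0%). Over all genes these shares were 21.4% and 22.4%, together 43.9%. Standard errors of the member genes were small, with a median of 0.037 against 0.082 over all genes. In bulk RNA, fewer cells expressing a gene and less of its RNA per cell cannot be told apart. The 3' minus 5' log2 difference of the ACTB control probe sets was 0.033 and 0.11 in induced arrays and -0.036 and 0.021 in controls. For GAPDH it was -0.043 and -0.047 in induced arrays and -0.067 and -0.069 in controls. In both it was higher in the induced arrays, and its part in the differences of the member genes was not tested.

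**Figure D1:**
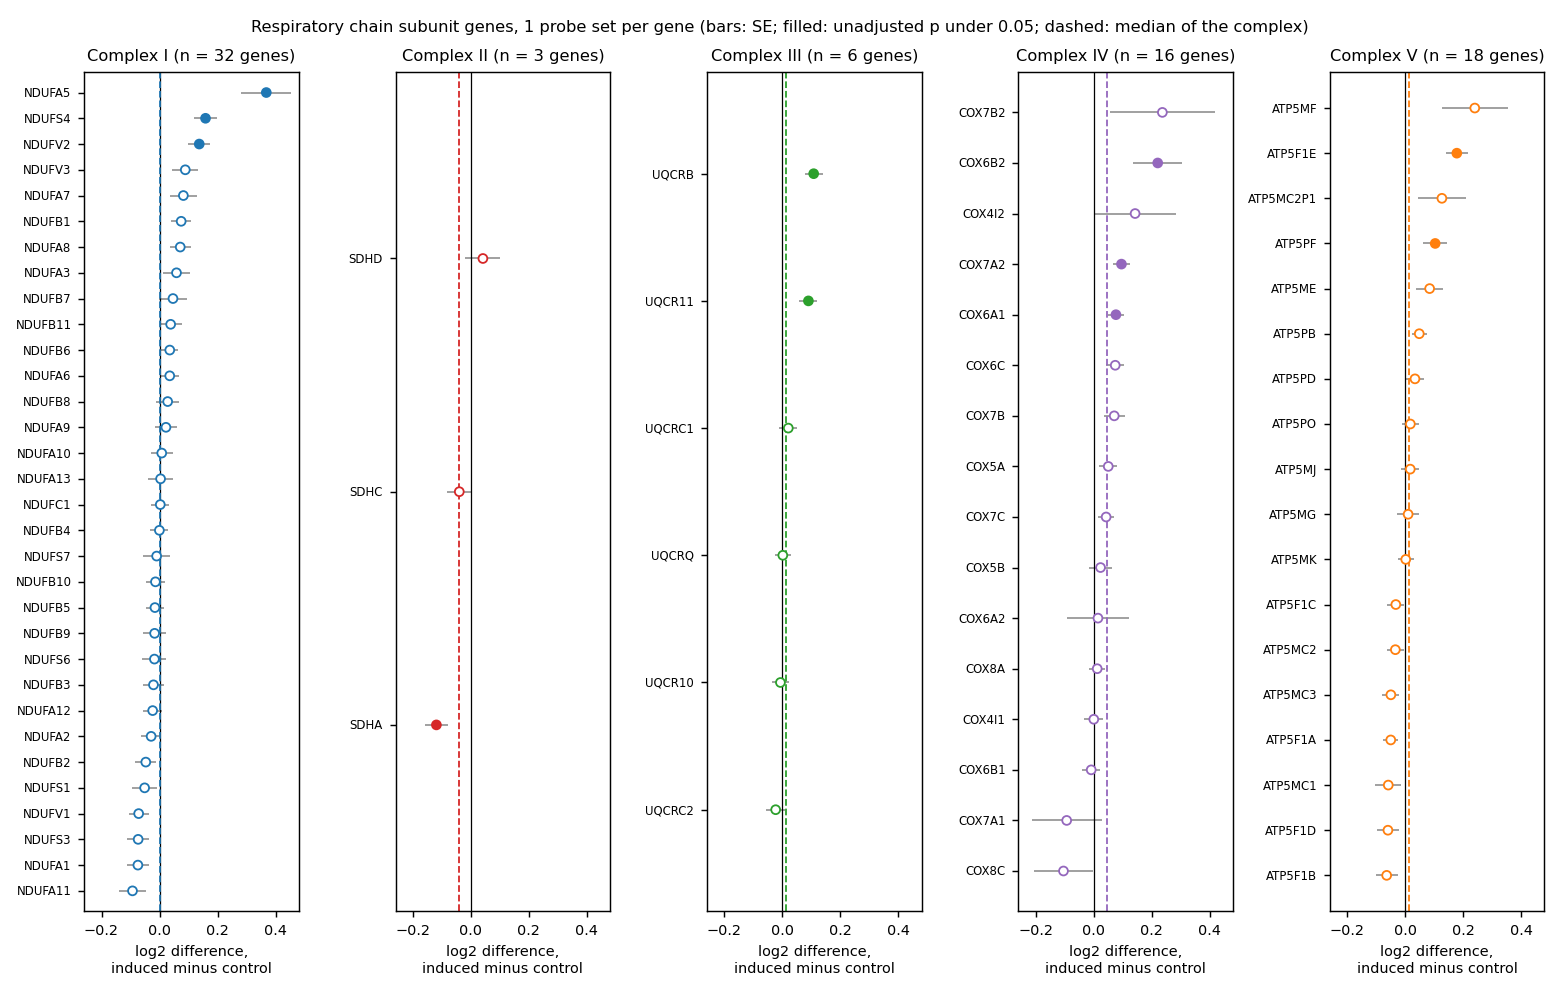
Log2 difference (induced minus control, x axis) of each of the 75 subunit genes by its brightest probe set, in 1 panel per complex, with bars for the SE, filled points at an unadjusted p under 0.05 and a dashed line at the complex median. NDUFA5 at 0.37 stands apart from the other genes of complex I, and SDHA at -0.12 is the filled point on the lower side.

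By complex, the median log2 difference was 0.0031 for complex I, -0.040 for complex II, 0.011 for complex III, 0.046 for complex IV and 0.014 for complex V. The median of all genes was -0.0030. By sign, 17 of 32 genes of complex I were higher, 1 of 3 of complex II, 4 of 6 of complex III, 13 of 16 of complex IV and 11 of 18 of complex V, where 48.7% of all genes were higher. The spread between replicates was measured as the pooled SD within groups of each array's median over genes centred on their means. It was 0.014 for complex I, 0.018 for complexes II and IV, 0.0076 for complex III and 0.0068 for complex V. The difference of complex I was thus smaller than its spread. Those of the other complexes were larger, by a few hundredths of a log2 unit or less. The differences are medians over genes, while the spread belongs to medians taken per array. By these per-array medians the groups overlapped in complexes I and V and did not in II, III and IV. Complex V had -0.0069 and 0.0066 in induced arrays, against -0.0053 and -0.0032 in controls. Cyclic loess turned the medians of complexes I, III and V to -0.018, -0.015 and -0.014, while complex IV kept a positive median (0.028) and complex II a negative one (-0.060).

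Promoters of respiratory chain genes are known for shared regulators. NRF1 and the ETS factor GABP are the classic activators of respiratory chain genes, and YY1 is another. RefSeq promoter windows (GRCh38.p14, 250 bases before to 50 after the start) were on hand for 63 of the 75 genes, in 75 windows. The NRF1 core GCGCANGCG, on either strand, was found in 29.3% of member windows and in 7.52% of all 35116 windows. The ETS core CCGGAAG was found in 26.7% of member windows and 10.3% of all, and the YY1 core AAGATGGCG in 9 of the 75 member windows and 1.75% of all, each on either strand. The ends of these motifs share letters, but no 2 motifs overlapped in a member window, and such overlaps were found in 3 (NRF1 and ETS), 2 (NRF1 and YY1) and 5 (ETS and YY1) of all windows. The median GC content was 60.3% in member windows and 58.7% in all. A match is a description of these letters. The 250 bases before the start are shown for 3 of the 5 genes with both an unadjusted p under 0.05 and an NRF1 core match, with that core of either strand in capitals. NDUFA5 and UQCR11 were higher and SDHA was the lower gene, and the 3 were chosen after the values were seen. The NDUFA5 window (chr7:123557819-123558068, minus strand) holds 1 match, and the other 2 NDUFA5 windows hold none. That of UQCR11 (chr19:1605463-1605712, minus strand) holds 2 matches and that of SDHA (chr5:218070-218319, plus strand) 4.
NDUFA5: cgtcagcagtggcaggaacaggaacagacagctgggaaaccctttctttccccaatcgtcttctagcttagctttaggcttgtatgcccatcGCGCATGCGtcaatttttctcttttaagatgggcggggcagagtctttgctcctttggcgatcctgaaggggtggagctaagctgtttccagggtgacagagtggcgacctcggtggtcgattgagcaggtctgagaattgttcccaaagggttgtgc
UQCR11: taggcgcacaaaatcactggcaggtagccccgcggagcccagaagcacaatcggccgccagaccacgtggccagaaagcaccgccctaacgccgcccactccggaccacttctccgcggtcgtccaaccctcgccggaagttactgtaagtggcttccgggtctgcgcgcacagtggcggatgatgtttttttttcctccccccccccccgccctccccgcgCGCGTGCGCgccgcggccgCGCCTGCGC
SDHA: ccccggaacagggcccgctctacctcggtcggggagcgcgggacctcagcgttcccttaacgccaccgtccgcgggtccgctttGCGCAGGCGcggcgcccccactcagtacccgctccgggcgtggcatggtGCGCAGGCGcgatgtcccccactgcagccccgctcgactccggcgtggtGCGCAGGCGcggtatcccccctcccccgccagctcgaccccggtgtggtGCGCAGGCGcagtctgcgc
Of the other genes past the unadjusted threshold, COX6A1 has 1 match in its window and ATP5PF 1 match in 1 of its 2 windows. The windows of ATP5F1E, NDUFS4, NDUFV2, COX7A2 and COX6B2 hold no match to these letters, and no window of UQCRB was used here.

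Complex I takes electrons from NADH through its matrix arm and moves protons in its membrane arm. Of its 32 measured genes, 3 passed the unadjusted threshold as higher and 0 as lower, beside 6.48% and 4.73% of all genes, so the count lay near the background. All 3 belong to the matrix arm. NDUFA5 (chr7:123536997-123601651, GRCh38.p14) had log2 intensities of 10.68 and 10.95 in induced cells, against 10.49 and 10.40 in controls. Both induced arrays lay above both controls, with a wide gap between the induced arrays themselves. The difference was 0.37 (SE 0.086, 1.29-fold, limma adjusted p = 0.472), and a dim second probe set near 3.8 gave -0.02.

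NDUFS4, an accessory subunit of the NADH-oxidising part whose loss causes Leigh syndrome, had 9.95 and 9.95 in induced cells, against 9.80 and 9.79 in controls. The replicates were nearly equal and the groups did not overlap, with a difference of 0.16 (SE 0.041, limma adjusted p = 0.472). Its dim second probe set pointed the same way at 0.20. NDUFV2, a core subunit with an iron-sulfur cluster, had 11.18 and 11.23 in induced cells and 11.08 and 11.05 in controls, a difference of 0.14 (SE 0.037, limma adjusted p = 0.472). Here too the groups did not overlap. Next by p on this side came NDUFB1 of the membrane arm at 0.07, NDUFV3 of the NADH-oxidising part at 0.09 and NDUFA8, on the intermembrane face, at 0.07. None of these passed even the unadjusted threshold.

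The other core subunits of complex I lay below 0. NDUFV1, which binds NADH and the flavin, had 11.82 and 11.79 in induced cells and 11.90 and 11.85 in controls, a difference of -0.07 (SE 0.034). NDUFS3, a core subunit of the ubiquinone-binding part, had 10.49 and 10.51 in induced cells and 10.56 and 10.59 in controls (difference -0.07, SE 0.038). In both genes the groups did not overlap, by gaps of a few hundredths. NDUFS1, the largest iron-sulfur subunit, stood at -0.05 with overlapping groups, and 4 of its 5 probe sets were lower. NDUFS7, which holds the last iron-sulfur cluster before ubiquinone, stood at -0.01. Over the 5 measured core genes the median was -0.051, with 1 higher and 4 lower by sign. The 27 accessory genes had a median of 0.0076, with 16 higher and 11 lower. After centring arrays on their medians the core genes split into 2 higher and 3 lower, and the accessory genes into 23 and 4. Centring moved all genes upward alike, to a median of 0.022 with 11468 of 19775 genes higher, against 9640 before it.

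Among accessory subunits of the membrane arm, NDUFA11 was lowest at -0.09 (SE 0.047), with 11.69 and 11.67 in induced cells and 11.71 and 11.83 in controls. A second probe set of like brightness gave 0.05, with both induced arrays above both controls. NDUFA1, needed for assembly of this arm, stood at -0.07 (SE 0.039), with 11.12 and 11.06 in induced cells and 11.15 and 11.18 in controls. The 11 NDUFB genes, all of the membrane arm, had a median of -0.00052 and a range of -0.05 to 0.07. NDUFB2 gave -0.05 by its brightest probe set and 0.11 (SE 0.039) by another.

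**Figure D2:**
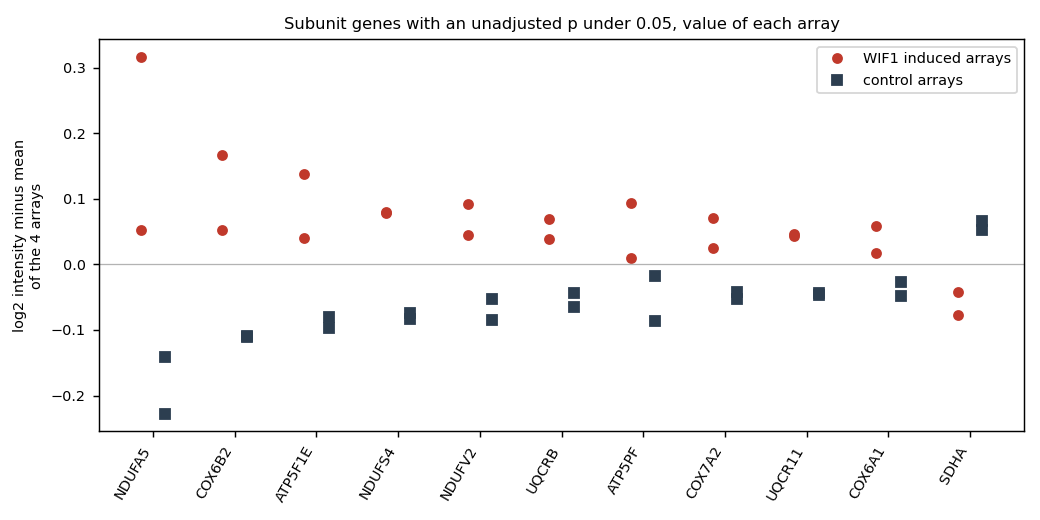
Log2 intensity of each array minus the mean of the 4 arrays (y axis) for the 11 subunit genes with an unadjusted p under 0.05, with WIF1 induced arrays as circles and controls as squares. The induced arrays lie above the controls in 10 genes and below them in SDHA, and the induced arrays of NDUFA5 are the farthest apart.

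Complex II oxidises succinate and is also an enzyme of the tricarboxylic acid cycle. SDHA (chr5:218320-268746), which carries the flavin and the succinate site, had 10.20 and 10.16 in induced cells, against 10.29 and 10.31 in controls. The groups did not overlap, and the difference was -0.12 (SE 0.040, limma adjusted p = 0.472), or 0.921-fold. It was read by 1 probe set of the _x_at kind, some of whose probes match other sequences, and near-identical SDHA pseudogenes are known, so this value is uncertain. SDHC and SDHD, the membrane anchors, stood at -0.04 (SE 0.041) and 0.04 (SE 0.060), and their groups overlapped. The 7 probe sets of SDHC ranged from -0.18 to 0.09. SDHB was not analysed here.

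Complex III hands electrons from ubiquinol to cytochrome c. UQCRB, a small subunit close to the ubiquinone site, had 12.07 and 12.10 in induced cells, against 11.99 and 11.97 in controls. Its difference was 0.11 (SE 0.031, limma adjusted p = 0.472) by the brightest probe set. A dimmer probe set had 8.34 and 8.27 in induced cells and 8.44 and 8.46 in controls, a difference of -0.14 (SE 0.056, limma adjusted p = 0.490). UQCRB was the only member gene with probe sets at an unadjusted p under 0.05 on both sides, and another probe set, nearly as bright as the first, gave -0.01.

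UQCR11 (chr19:1597169-1605462), the smallest subunit, had 11.74 in both induced arrays and 11.65 in both controls, a difference of 0.09 (SE 0.031, limma adjusted p = 0.472). The 2 core proteins differed little, UQCRC1 by 0.02 and UQCRC2 by -0.02, and so did UQCRQ at 0.00 and UQCR10 at -0.01. The standard error of each of these 4 was about 0.03, larger than its difference.

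Complex IV, cytochrome c oxidase, passes the electrons to oxygen, and its nuclear subunits surround a mitochondrially encoded core. By sign 13 of 16 genes lay above 0, against 14 after centring on medians and 10 after cyclic loess, and 7 had both induced arrays above both controls, against 0 the other way, where the all-gene shares were 21.4% and 22.4%. At an unadjusted p under 0.05, 3 were higher and 0 lower, beside 6.48% and 4.73% of all genes. COX7A2, the widely expressed form of its subunit, had 12.96 and 13.00 in induced cells, against 12.89 and 12.88 in controls. The difference was 0.10 (SE 0.029, limma adjusted p = 0.472). COX6A1, also the widely expressed form, had 13.12 and 13.16 in induced cells and 13.07 and 13.05 in controls, a difference of 0.08 (SE 0.029, limma adjusted p = 0.482). In both genes the groups did not overlap. COX6C had 12.50 and 12.51 in induced cells and 12.41 and 12.46 in controls, a difference of 0.07 (SE 0.031).

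COX6B2, the testis form, was dim, with 6.44 and 6.56 in induced cells and 6.28 in both controls, a difference of 0.22 (SE 0.084, limma adjusted p = 0.485). COX6B1, its widely expressed partner, stood at -0.01 (SE 0.032). The heart and muscle forms COX6A2 and COX7A1 lay below the median probe set, at 5.58 to 5.79 and 5.50 to 5.79 over the 4 arrays, and stood at 0.01 and -0.09. The testis forms COX7B2 and COX8C were dimmer still, at 4.15 to 4.75 and 2.47 to 2.68, and stood at 0.24 (SE 0.18) and -0.10 (SE 0.10). COX4I1 stood at 0.00 and COX4I2, the form of lung and hypoxic cells, at 0.14 (SE 0.14). COX7B stood at 0.07 and COX8A at 0.01. None of the tissue forms other than COX6B2 had groups that did not overlap. Without the second induced array complex IV had 10 genes higher and 6 lower and a median of 0.025.

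COX5A and COX5B hold the matrix side of the enzyme. Probe sets of COX5A disagreed in sign, while those of COX5B were all above 0 and differed in size. The brightest COX5A probe set stood at 0.05, and a dim one had 7.24 and 7.17 in induced cells and 7.44 and 7.54 in controls, a difference of -0.28 (SE 0.074, limma adjusted p = 0.472). The 4 probe sets of COX5B ran from 0.02 for the brightest to 0.20 (SE 0.059) for the dimmest, with 0.04 and 0.09 between. These secondary probe sets were picked out after their values were seen. COXFA4, once named NDUFA4 and now placed in complex IV, lies outside the symbol rule. It had 12.96 and 13.04 in induced cells and 12.90 and 12.86 in controls, a difference of 0.12 (SE 0.036, limma adjusted p = 0.472).

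**Figure D3:**
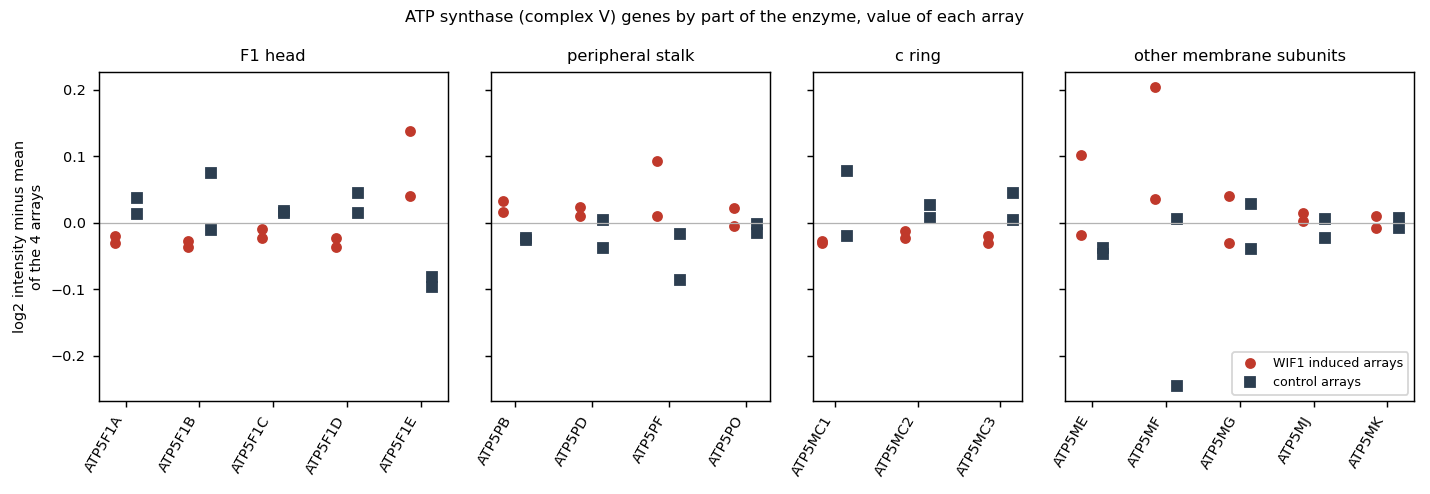
Log2 intensity of each array minus the mean of the 4 arrays (y axis) for the 17 ATP synthase genes other than the pseudogene, in 1 panel for each part of the enzyme, with WIF1 induced arrays as circles and controls as squares. In the F1 head ATP5F1E has its induced arrays above the controls and the other 4 genes have them below.

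The ATP synthase joins a catalytic F1 head to a rotating c ring in the membrane, held by a peripheral stalk. ATP5F1E (chr20:59025475-59032335), the epsilon subunit at the foot of the head, had 13.29 and 13.39 in induced cells, against 13.17 and 13.15 in controls. Its difference was 0.18 (SE 0.037, limma adjusted p = 0.472), or 1.13-fold, with the smallest unadjusted p of all member genes (0.0027). A dim second probe set gave -0.12.

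The other genes of the head lay slightly lower in induced cells. ATP5F1B, the catalytic beta subunit, had 12.10 and 12.11 in induced cells and 12.21 and 12.12 in controls, a difference of -0.06 (SE 0.038). ATP5F1A, the alpha subunit, had 13.26 and 13.27 in induced cells and 13.30 and 13.32 in controls, a difference of -0.05 (SE 0.026). ATP5F1D, the delta subunit, stood at -0.06 and ATP5F1C, the gamma subunit that turns in the head, at -0.03. In these 4 genes the induced arrays lay below both controls, as in 22.4% of all genes, and none passed the unadjusted threshold.

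ATP5MC1, ATP5MC2 and ATP5MC3 encode the same mature c ring subunit with different import sequences. They stood at -0.06, -0.03 and -0.05, with both induced arrays below both controls in each, again beside 22.4% of all genes, and a second bright probe set of ATP5MC3 gave 0.03. The 4 genes of the peripheral stalk were all above 0, led by ATP5PF at 0.10 (SE 0.041, limma adjusted p = 0.490). ATP5PF had 12.48 and 12.57 in induced cells and 12.46 and 12.39 in controls, so the groups barely parted. ATP5PB, which spans the membrane, stood at 0.05, ATP5PD at 0.03 and ATP5PO, at the top of the stalk, at 0.02. A second probe set of ATP5PO, of the _x_at kind, gave 0.25 (SE 0.076).

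The 5 other membrane genes ran from 0.00 for ATP5MK to 0.24 (SE 0.11) for ATP5MF, whose probe set was dim at 6.51 and 6.68 in induced cells and 6.48 and 6.23 in controls. Median differences were -0.050 for the head, -0.049 for the c ring, 0.041 for the stalk and 0.017 for the other membrane genes. The signs of head and c ring stayed after centring on medians and after cyclic loess. The other membrane genes had 2 higher and 3 lower after cyclic loess, and the stalk 3 higher and 1 lower. With probe sets averaged per gene, the stalk had 2 higher and 2 lower and the c ring 1 higher and 2 lower. Without probe sets of the _x_at and _s_at kinds, the head split into 2 higher and 2 lower, the c ring into 2 higher and 0 lower, and the stalk into 1 higher and 2 lower.

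**Figure D4:**
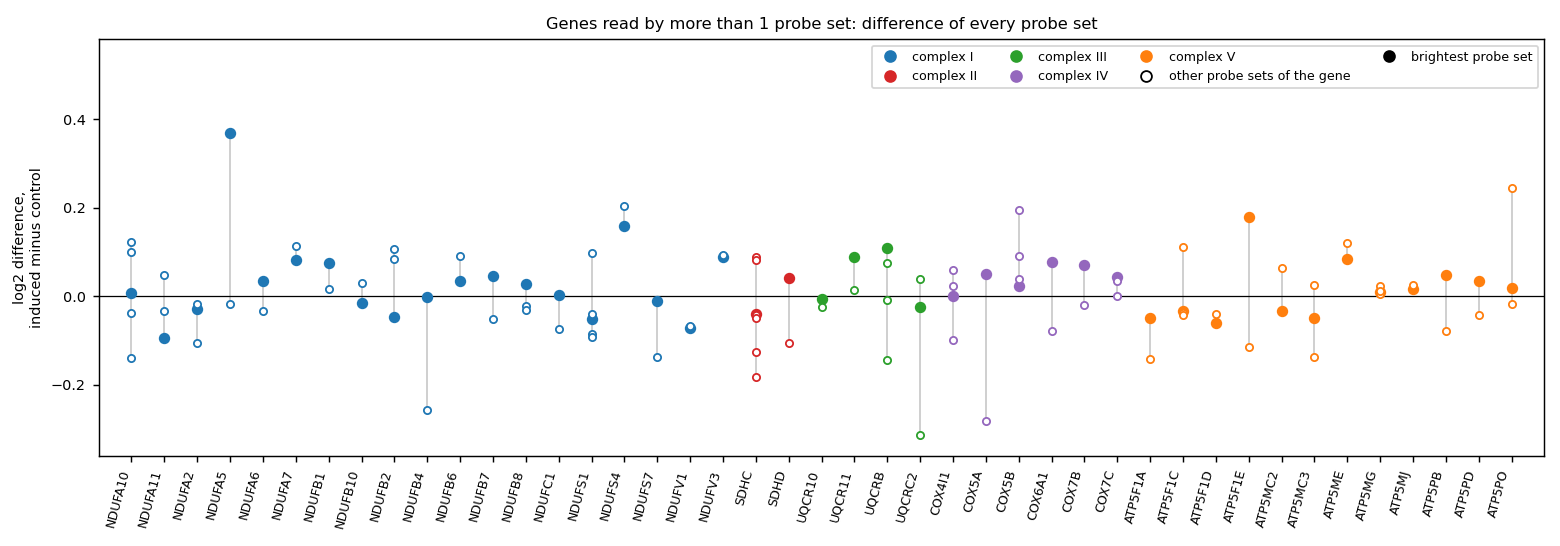
Log2 difference (induced minus control, y axis) of every probe set of the 43 subunit genes read by more than 1, with the brightest probe set filled and the others open, coloured by complex. Probe sets of the same gene lie on both sides of 0 in 25 of these genes, and the other probe sets of NDUFA5 and ATP5F1E lie below 0.

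Of the 75 genes, 43 were read by several probe sets, up to 7 a gene, and in 25 of these the probe sets pointed both ways. Counting probe sets, those with an unadjusted p under 0.05 were 14 of 147 higher and 3 lower, together 11.6%, where 10.0% of all probe sets passed. By gene, 71 of the 75 had a mean at or above the median probe set, and among all genes that bright 7.98% passed the same unadjusted threshold as higher and 5.63% as lower.

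Other genes of the pathway, from lists chosen for this purpose, had 0 genes called by limma at an adjusted p under 0.05. Their counts by the unadjusted threshold stand beside 6.48% of all genes higher and 4.73% lower. Of 17 complex I assembly factors 1 was higher and 0 lower by the unadjusted threshold. That was NDUFAF4 at 0.21 (SE 0.078), with 9.54 and 9.76 in induced cells and 9.47 and 9.40 in controls, followed by TMEM186 at 0.11. A second NDUFAF4 probe set gave -0.035. Of 4 complex II assembly factors 1 was higher, SDHAF3, which helps to insert the iron-sulfur subunit, with 8.41 and 8.40 in induced cells and 8.07 and 8.19 in controls (difference 0.28, SE 0.062, limma adjusted p = 0.472). SDHAF4, which acts on SDHA, stood at 0.11. Of 23 complex IV assembly factors 1 was higher and 0 lower. It was CMC1, which binds the newly made mitochondrial COX1 protein, with 9.97 and 10.15 in induced cells and 9.63 and 9.68 in controls. Its difference of 0.41 (SE 0.067, limma adjusted p = 0.413) was larger than that of any subunit, and COX18 stood at 0.09. A second COX18 probe set gave -0.07. Neither the 6 complex III factors nor the 5 genes for complex V assembly and regulation had a gene past the unadjusted threshold. Their members of smallest p were UQCC3 at 0.08, UQCC1 at -0.05, ATPAF2 at 0.08 and ATPAF1 at 0.05. Probe sets of UQCC1, ATPAF2 and ATPAF1 pointed both ways.

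CYCS, cytochrome c itself, had 13.20 and 13.22 in induced cells, against 13.09 and 12.98 in controls, a difference of 0.18 (SE 0.041, limma adjusted p = 0.472). The 3 probe sets of CYCS ranged from -0.010 to 0.20. COXFA4L2, a relative of COXFA4 known to be induced by hypoxia, stood at -0.30 (SE 0.12, limma adjusted p = 0.490). They were the only 2 of 8 further subunits and carriers past the unadjusted threshold. CYC1, the cytochrome of complex III, stood at -0.05 and NDUFAB1, the acyl carrier protein of complex I, at -0.0040. Coenzyme Q synthesis had 0 of 11 genes past it, with COQ5 at 0.10 and COQ8B at -0.13. The supercomplex and cristae list had 0 of 11, with IMMT at -0.07 and CHCHD3 at 0.08. A second CHCHD3 probe set gave -0.20.

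In the tricarboxylic acid cycle 2 of 11 genes were higher and 1 lower by the unadjusted threshold, beside 6.48% and 4.73% of all genes. These 3 encode subunits of succinyl-CoA synthetase, the enzyme just before complex II. SUCLG2 and SUCLA2, alternative beta subunits, stood at 0.23 (SE 0.055) and 0.22 (SE 0.074), and SUCLG1, their shared alpha subunit, at -0.09 (SE 0.032). SUCLG1 had 11.64 and 11.66 in induced cells and 11.76 and 11.73 in controls. The 4 probe sets of SUCLG2 ranged from -0.0012 to 0.36. Of 15 genes for mitochondrial biogenesis and transcription 1 was higher, TFB2M, a factor of mitochondrial transcription, at 0.15 (SE 0.051). POLG, the mitochondrial DNA polymerase, stood at 0.18. The probe sets of TFB2M disagreed, from -0.18 to 0.26, and so did those of POLG, from -0.12 to 0.18. Subunits encoded by mitochondrial DNA were not analysed here.

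**Figure D5:**
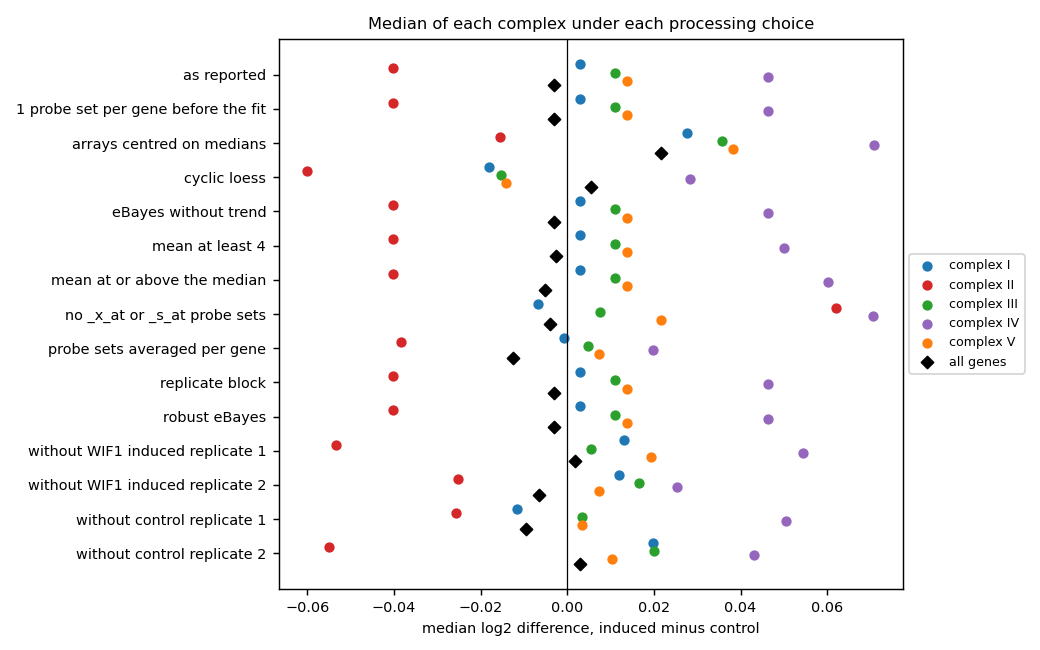
Median log2 difference (induced minus control, x axis) of each complex and of all genes under each processing choice (rows), with 1 colour per complex and diamonds for all genes. Complex IV stays above 0 in each row, at 0.020 to 0.071, complex II below 0 except without _x_at and _s_at probe sets, and complexes I, III and V lie within 0.04 of 0.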

How the data were processed

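Total RNA of 4 cultures was amplified to biotin-labelled cRNA and hybridised, per the labels' protocols. The authors deposited log2 intensities, which the submitters' processing notes credit to RMA (affy, in R). The affy version is not given in the sources used here. RMA equalises intensity distributions between arrays, so a change shared by most genes would not be seen. Array number limits the precision.

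Of 54675 rows, 62 control probe sets were left out. Gene symbols came from the platform annotation (41091 probe sets with 1 symbol, 1801 with several, 11721 with none), and 0 symbols differed from RefSeq by gene identifier. Each gene was read by its probe set of highest mean. Groups were compared with limma 3.58.1 in R 4.3.3 (lmFit and eBayes, its prior variance following mean intensity). The 2-sided p-values were adjusted over 54613 probe sets by Benjamini-Hochberg, and 0.05 was the threshold. The test was tried on simulated data. Complexes and other gene lists were described by counts and medians, without a test.

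The members, lists and tests were chosen with earlier results of these data known. Named genes were the up to 6 (complex I) or 4 (other complexes) of smallest p on each side with a mean at or above 6.16, all of complex II, the isoform families, genes with opposed probe sets and up to 2 per further list. Others named were chosen after their values were seen.

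Arrays of the 2 groups share replicate numbers. Deviations of same-numbered arrays from their group means correlated at 0.056 over probe sets, so the numbers were not taken as pairs. Alternatives were a replicate block, other eBayes settings, filters on dim probe sets, other scalings, other choices of probe sets, other thresholds and leaving out each array.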

Additional observations from a re-analysis of the deposited data

How the results depend on the processing

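No member probe set or gene was called under any alternative, at adjusted p thresholds of 0.01, 0.05 or 0.1, and the smallest adjusted p of a named gene over all alternatives was 0.280. Over all genes the smallest limma adjusted p was 0.0794 in the fit as reported, which lies under the threshold of 0.1. At that threshold the whole series thus held calls that the members did not. Shares of all features called under the alternatives are not given here. The cause of the following shifts was not tested. Of the 10 genes higher at an unadjusted p under 0.05, the count was 2 without the eBayes trend and 6 after cyclic loess, and leaving out an array gave 3 to 10. The replicate block gave 6 higher and 1 lower, and over all genes 925 higher and 686 lower. Whether the replicate numbers pair the cultures is not said in the labels. The count of genes lower, 1 as reported, was 0 after centring on medians and without the trend, and 5 after cyclic loess. Without _x_at and _s_at probe sets 9 of 63 member genes were higher and 2 lower, beside 1030 and 822 of all 17098 genes. With probe sets averaged 8 member genes were higher and 3 lower, beside 1009 and 1038 of all 19775 genes.

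Medians of complexes I to V after centring on array medians were 0.028, -0.016, 0.036, 0.071 and 0.038, with all genes at 0.022. After cyclic loess complexes I, II, III and V gave -0.018, -0.060, -0.015 and -0.014. Without _x_at and _s_at probe sets complexes II, IV and V gave 0.062, 0.071 and 0.022, with probe sets averaged complex IV gave 0.020, and over all its probe sets complex III gave 0.0016. Leaving out an array gave -0.012 to 0.020 for complex I, -0.055 to -0.025 for II, 0.0034 to 0.020 for III, 0.025 to 0.054 for IV and 0.0035 to 0.019 for V.

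Of 473 values of named genes under alternatives, 20 changed sign, in 12 genes. Without _x_at and _s_at probe sets these were NDUFB2 at 0.11, SDHC at 0.083, UQCRB at -0.14, UQCRC2 at 0.039, ATP5PB at -0.078 and ATP5MC3 at 0.026. With probe sets averaged they were NDUFB2 at 0.048, SDHD at -0.032, COX6A1 at -0.0015 and ATP5PB at -0.015. Centring on medians turned UQCRC2 to 0.0015, UQCR10 to 0.018 and COX6B1 to 0.016, and cyclic loess turned UQCRC1 to -0.0026 and UQCRQ to -0.028. Leaving out an array gave -0.025 to 0.11 for SDHD, -0.055 to 0.0033 for SDHC, -0.0073 to 0.010 for UQCRQ and -0.019 to 0.0061 for UQCR10. Adding COXFA4 to complex IV gave 0.050, and leaving the pseudogene out of complex V, chosen after seeing the data, gave 0.010. Complex I without NDUFA4 was not run, since the annotation names that gene COXFA4. Fits that left out an array assume that the lone array varies like the other group. Dim probe sets near the floor limit what their genes can show.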
